A study of Mus musculus with 8 samples.

Results

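MHC class II antigen presentation was followed through 9 genes in mouse bone marrow-derived macrophages. These were the class II chains H2-Aa, H2-Ab1 and H2-Eb1, the peptide exchange factors H2-DMa, H2-DMb1 and H2-DMb2, and H2-Oa, which restrains that exchange. The others were the invariant chain Cd74 and the transactivator Ciita. All 9 genes were taken by gene symbol from a table of 54532 genes, and each symbol had 1 row. Bone marrow-derived macrophages are macrophages grown in culture from marrow cells. They came from mice labelled ELF1 KO and from WT mice, and were either given lipopolysaccharide (LPS), the endotoxin of Gram-negative bacteria, for 6 h or left without it. The 8 RNA-seq libraries form 4 groups of 2: KO-labelled cells with LPS (KO_M1), WT cells with LPS (WT_M1), KO-labelled cells without LPS (KO_con) and WT cells without LPS (WT_con). The labels write the LPS arm as M1, and LPS is the only stimulus named for the series. The sources used here give neither the allele behind the KO label nor the strain, age or sex of the mice.

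Class II molecules carry peptides from endocytosed material to the cell surface for CD4+ T cells. Each is a pair of an alpha and a beta chain: H2-Aa and H2-Ab1 encode the pair of the I-A molecule, and H2-Eb1 encodes the beta chain of I-E. Cd74, the invariant chain, fills the groove of new class II molecules and takes them to endosomes, where cathepsins cut it down to a short peptide. H2-DM, made of H2-DMa and an H2-DMb chain, exchanges that peptide for others, and H2-O, which H2-Oa and H2-Ob encode, restrains H2-DM. Ciita encodes the co-activator that binds no DNA itself and is recruited to class II promoters by factors bound at the X and Y boxes. In macrophages it is known above all as a target of interferon gamma.

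The libraries held 15753259 to 18058974 reads on genes. The targeted gene Elf1, an ETS-family transcription factor, had 16.5 and 17.9 FPKM in KO_M1, 21.9 and 22.4 in WT_M1, 16.9 and 16.1 in KO_con and 12.4 and 14.1 in WT_con. FPKM is a read count divided by the length of the gene and by a library size that the authors set. The reads therefore go against the KO label without LPS, where both KO_con libraries lay above both WT_con libraries. The log2 difference was 0.30 ± 0.07 (limma-trend adjusted p = 0.0699). With LPS Elf1 lay in the direction of the label, lower in both KO_M1 libraries, by -0.35 ± 0.07 (limma-trend adjusted p = 0.0133). Under TPM, total-read and quantile scaling that difference was -0.16, -0.14 and -0.20, with adjusted p-values above 0.05. The difference without LPS was then 0.39, 0.36 and 0.36, with adjusted p-values under 0.05. A total per gene cannot show whether an exon is missing. For these reasons the groups are called KO-labelled here, and each direction given for them rests on the labels. All 8 macrophage markers examined, Csf1r, Adgre1, Cd68, Itgam, Mertk, Lyz2, Fcgr1 and Cd14, were read in every library. The sum of these markers was 8441 to 9145 FPKM in KO_M1, 7664 to 7786 in WT_M1, 9958 to 10508 in KO_con and 9043 to 9146 in WT_con. Most of it was Lyz2, at 4836 to 5493 FPKM in KO_M1 and 3944 to 4024 in WT_M1. Without LPS, Lyz2 had 7598 to 8095 FPKM in KO_con and 6491 to 6669 in WT_con. With LPS, 2 of the 8 were higher and 3 lower in KO-labelled cells than in WT cells, at a limma-trend adjusted p under 0.05. Without LPS 0 were higher and 2 lower. Over all genes tested, 10.8% were higher and 18.1% lower with LPS, and 1.72% and 3.92% without it. Of 10 dendritic cell markers, 7 stayed under 1 FPKM in all libraries, among them Flt3, Zbtb46 and Clec9a. Of 8 B cell markers, 5 did so, among them Cd79a and Pax5. The labels do not say whether the libraries of a group come from separate mice, so p-values reflect how these libraries vary among themselves, which may be technical variation.

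The promoters of class II genes are known for a shared arrangement, an X box bound by the RFX complex followed by a Y box bound by NF-Y. RefSeq's promoter windows on GRCm38.p6, which run from 250 bases before to 50 bases after a start site, were available for 6 of the 9 genes. A stretch of 75 bases from 5 of them and from H2-Ob is shown because class II genes are known to be driven through this arrangement, and because H2-DMb1 and H2-DMb2 can be set side by side in them. Capitals mark the Y box core ATTGG and, where the letters match, the X1 box core, searched as AGNAAC, any 2 bases and then ATG, with N for any base. All stretches are written 5′ to 3′ on the strand of the gene.
H2-Aa, chr17:34287857-34287931, minus strand: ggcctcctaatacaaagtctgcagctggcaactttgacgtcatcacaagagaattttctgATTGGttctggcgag
H2-Eb1, chr17:34305748-34305822, plus strand: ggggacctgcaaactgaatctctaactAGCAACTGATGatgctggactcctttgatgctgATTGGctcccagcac
H2-DMb1, chr17:34153070-34153144, plus strand: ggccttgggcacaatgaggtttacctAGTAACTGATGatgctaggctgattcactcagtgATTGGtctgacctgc
H2-DMb2, chr17:34145099-34145173, plus strand: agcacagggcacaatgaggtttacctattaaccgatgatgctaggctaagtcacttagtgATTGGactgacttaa
H2-Oa, chr17:34092276-34092350, plus strand: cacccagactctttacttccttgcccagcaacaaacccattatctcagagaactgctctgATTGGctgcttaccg
H2-Ob, chr17:34238788-34238862, plus strand: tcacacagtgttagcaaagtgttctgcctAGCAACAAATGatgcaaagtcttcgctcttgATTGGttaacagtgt

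The Y box core stood in all 6 windows of the 9 genes and in 37.4% of the 32851 windows of all genes, on either strand. The H2-DMa window, at 34125268 to 34125567, lies well before the gene start used here, 34135182. It may therefore not be the promoter of H2-DMa as measured, and each count over the 6 windows includes it. Its Y core also lay farther from its RefSeq start site than those of the other windows. The H2-DMb2 window, at 34144999 to 34145298, lies inside the gene as used here, which starts at 34143307. It may likewise not be the promoter of H2-DMb2 as measured. The counts over the 6 windows and the comparison of H2-DMb2 with H2-DMb1 include it. The X1 core stood in 2 of the 6, H2-Eb1 and H2-DMb1, against 0.895% of all windows. An X1 core followed by a Y core 10 to 30 bases later on the same strand was found in 4 windows of 32851 (0.0122%), those of H2-DMb1, H2-Ob, H2-Eb1 and H2-Eb2. The bases between both cores numbered 22 in H2-Eb1, 23 in H2-DMb1 and 20 in H2-Ob. At the place of the H2-DMb1 X1 core, H2-DMb2 differs by G2T and T7C, counted from 1 at the 5′ end of the 11 letters, with the H2-DMb1 base written before the position. The ETS core CCGGAAGT, the kind of site that Elf1's family binds, was searched on both strands. It stood in 3.89% of all windows and in none of the 6. The same held for the interferon-sensitive core, 2 copies of GAAA with any 2 bases between them, with 3.44% of all windows. A gamma-activated site of the form TTCNNNGAA stood in the H2-DMb2 window and in 8.30% of all windows. These are matches of letters in 1 window per gene, not binding.

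Levels are compared between the 9 genes in FPKM, which is per length. Cd74 (ENSMUSG00000024610, chromosome 18) stood near the top of the transcriptome, at rank 10 of all genes by mean FPKM in KO_M1, 17 in WT_M1, 13 in KO_con and 18 in WT_con. The 3 class II chains followed at 146 to 488 FPKM over the libraries, and the H2-DM chains H2-DMa and H2-DMb1 at 10.3 to 40.1 FPKM. Ciita was read at 1.09 to 4.81 FPKM, or 228 to 706 reads. H2-DMb2 and H2-Oa stayed under 1 FPKM in every library. Some neighbours in this order did not differ beyond their spread: H2-Ab1 and H2-Eb1 overlapped in KO_con and in WT_con, H2-Eb1 and H2-Aa overlapped in KO_M1, and H2-DMb1 and H2-DMa overlapped in WT_con. The 9 genes together took 0.499 and 0.461% of the reads in KO_M1, 0.276 and 0.291% in WT_M1, 0.382 and 0.417% in KO_con and 0.285 and 0.298% in WT_con. In this share of reads, each KO-labelled group lay above its WT group, and the WT groups with and without LPS overlapped.

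**Figure D1:**
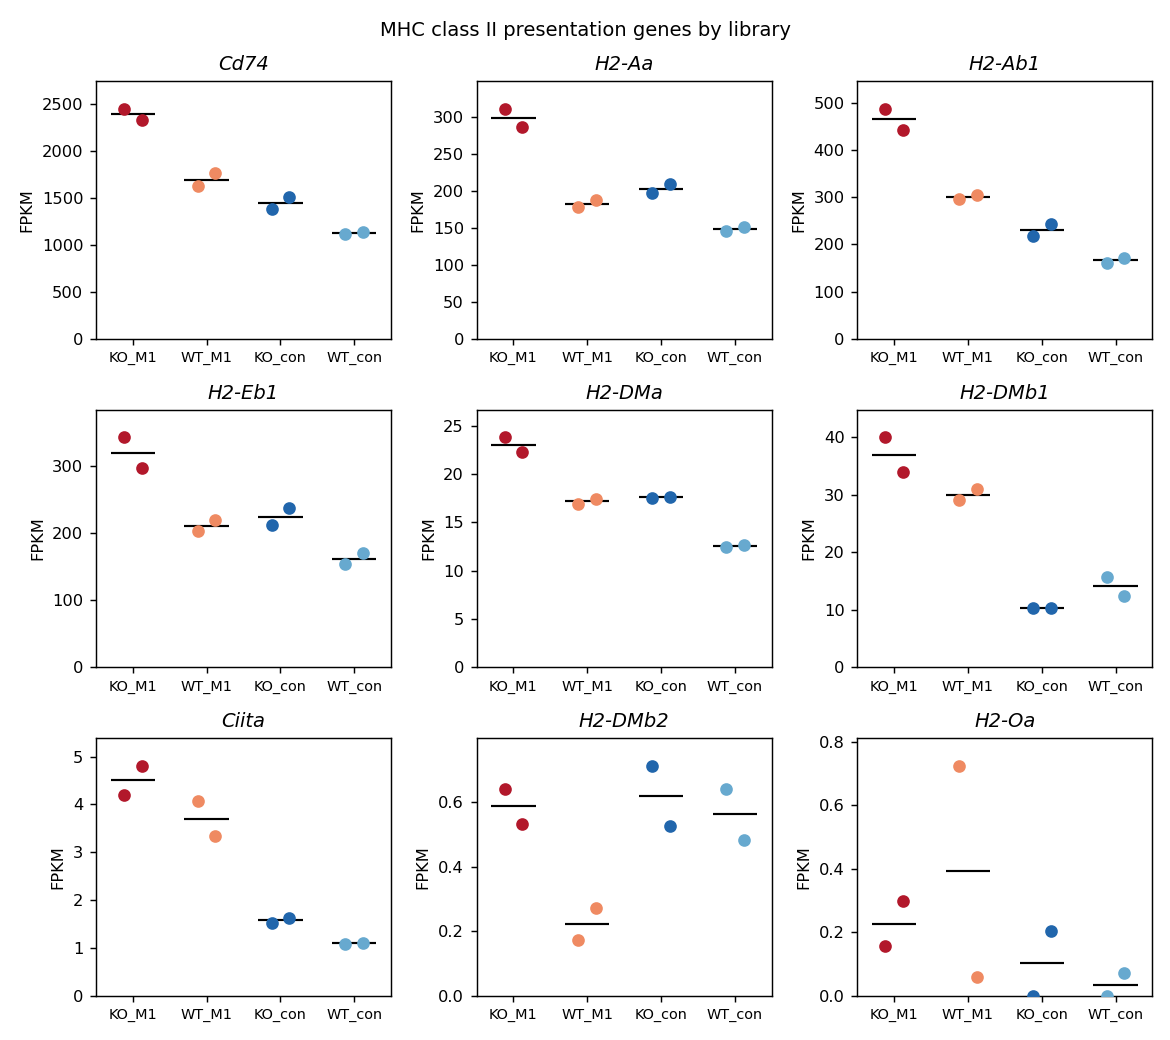
FPKM of the 9 genes in each of the 8 libraries, 1 panel per gene, with points for libraries and a line for the mean of 2 libraries; each vertical axis starts at 0 and has its own scale. For Cd74, H2-Aa, H2-Ab1, H2-Eb1 and H2-DMa both KO_M1 libraries lie above both WT_M1 libraries, and both KO_con libraries above both WT_con libraries. H2-DMb1 is at 10.4 and 10.3 FPKM in KO_con, under its WT_con libraries at 15.7 and 12.4.

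With LPS, the class II chains, the invariant chain and H2-DMa were higher in KO-labelled macrophages than in WT macrophages, by 1.32 to 1.63 times. Of the 7 genes tested, 5 were called higher, none lower, and H2-DMb1 and Ciita were not called; a call is an adjusted p under 0.05 in limma-trend on log2(FPKM + 1), adjusted over the 11887 genes tested. Over all those genes 28.9% were called in either direction, and 10.8% were called higher. The other 2 genes, H2-DMb2 and H2-Oa, fell under the minimum of 1 FPKM in at least 2 libraries. In bulk RNA, fewer cells of a type and less RNA per cell cannot be told apart.

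H2-Aa (ENSMUSG00000036594, chromosome 17, 34282744 to 34287827, minus strand), the alpha chain of I-A, had 312 and 287 FPKM in KO_M1, against 178 and 188 in WT_M1. The groups did not overlap, and the KO_M1 libraries were the highest of all 8. The difference was 0.71 ± 0.06 (log2 ± SE; limma-trend adjusted p = 3.23e-04), the largest of the 7 genes. Its beta chain H2-Ab1 (ENSMUSG00000073421, chromosome 17, 34263209 to 34269418, plus strand) had 488 and 442 FPKM in KO_M1, against 296 and 305 in WT_M1. It too did not overlap between the groups, and it was higher in KO_M1 by 0.63 ± 0.07 (limma-trend adjusted p = 0.00118). H2-Eb1 (ENSMUSG00000060586, chromosome 17, 34305877 to 34316199, plus strand), the beta chain of I-E, had 343 and 297 FPKM in KO_M1, against 203 and 219 in WT_M1. Its KO_M1 libraries differed more from each other than those of H2-Aa, and both lay above WT_M1, by 0.60 ± 0.09 (limma-trend adjusted p = 0.00392). A non-coding gene on the opposite strand overlaps H2-Eb1 in GENCODE M21 and had at most 1 read per library.

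Cd74 had 2454 and 2338 FPKM in KO_M1, against 1626 and 1768 in WT_M1. Both KO_M1 libraries were above both WT_M1 libraries, by 0.50 ± 0.06 on the log2 scale (limma-trend adjusted p = 0.00162). H2-DMa (ENSMUSG00000037649, chromosome 17, 34135182 to 34139101, plus strand) had 23.8 and 22.3 FPKM in KO_M1, against 16.9 and 17.5 in WT_M1. It was higher by 0.40 ± 0.05 without overlap (limma-trend adjusted p = 0.00149). These 5 calls and their direction held in each of 21 alternative settings, which covered other scalings, filters, pseudocounts, models and the loss of any library. Over the 13 settings that left out no replicate of their own, the H2-Aa difference ran from 0.69 to 0.93.

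H2-DMb1 (ENSMUSG00000079547, chromosome 17, 34153072 to 34160230, plus strand), the beta chain partner of H2-DMa, had 40.1 and 34.0 FPKM in KO_M1, against 29.1 and 30.9 in WT_M1. The groups did not overlap, but the KO_M1 libraries lay far apart, and the difference of 0.29 ± 0.12 was not called (limma-trend adjusted p = 0.106). It was called under TPM, total-read and quantile scaling and with voom, at 0.50, 0.50, 0.44 and 0.30. Ciita (ENSMUSG00000022504, chromosome 16, 10480059 to 10528418, plus strand) had 4.20 and 4.81 FPKM in KO_M1, against 4.07 and 3.34 in WT_M1. The groups nearly touched, and the difference of 0.23 ± 0.10, with a 95% interval of -0.01 to 0.47, was not called (limma-trend adjusted p = 0.140), except under total-read scaling (0.39) and with voom (0.29). The gene Dexi overlaps Ciita on the opposite strand and had 107 to 212 reads per library. No source used here gives the counting strand, so reads in the overlap cannot be assigned.

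**Figure D2:**
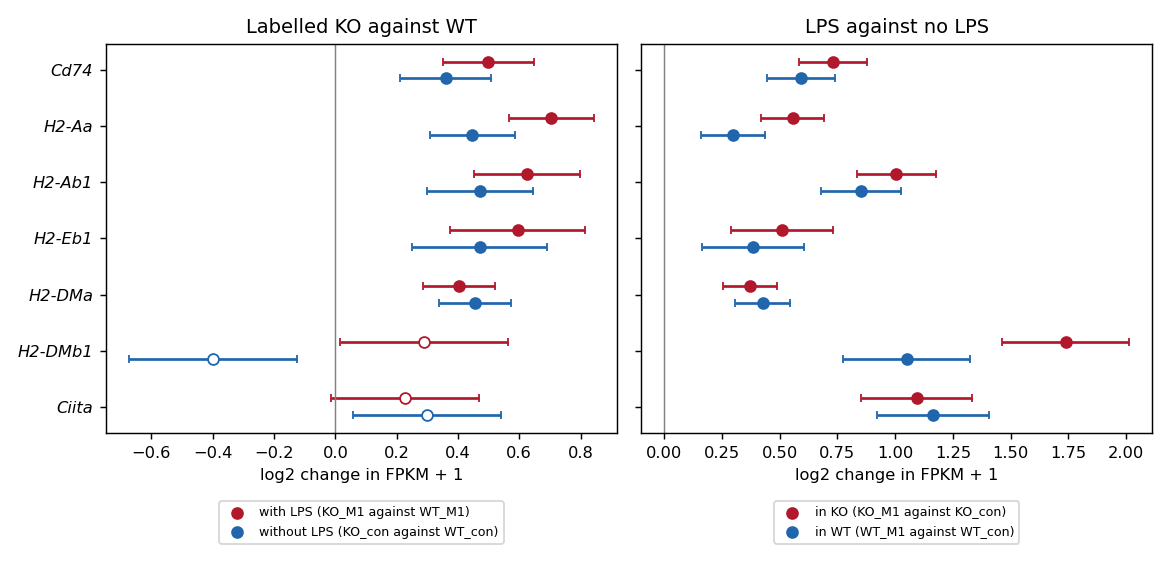
Log2 change in FPKM + 1 of the 7 genes tested, with 95% intervals from limma-trend. Left: KO-labelled against WT cells, with LPS (red) and without (blue). Right: LPS against no LPS, in KO-labelled cells (red) and in WT cells (blue). Filled points were called and open points were not. On the left the class II chains, Cd74 and H2-DMa lie right of 0 in both states, while H2-DMb1 lies at 0.29 with LPS and at -0.40 without it.

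Without LPS, the same 5 genes were called higher in KO-labelled macrophages, by 1.28 to 1.39 times, and again H2-DMb1 and Ciita were not called. Over all genes 5.64% were called in either direction: 1.72% were called higher and 3.92% lower. H2-Aa had 197 and 210 FPKM in KO_con, against 146 and 151 in WT_con, a difference of 0.45 ± 0.06 (limma-trend adjusted p = 0.00932). H2-Ab1 had 218 and 244 FPKM in KO_con, against 161 and 172 in WT_con, a difference of 0.47 ± 0.07 (limma-trend adjusted p = 0.0165). H2-Eb1 had 212 and 237 FPKM in KO_con, against 153 and 170 in WT_con, a difference of 0.47 ± 0.09 (limma-trend adjusted p = 0.0360). For each of these chains both KO_con libraries lay above both WT_con libraries. Cd74 had 1382 and 1508 FPKM in KO_con, against 1115 and 1135 in WT_con, a difference of 0.36 ± 0.06 (limma-trend adjusted p = 0.0243). H2-DMa had 17.6 and 17.6 FPKM in KO_con, against 12.5 and 12.6 in WT_con, a difference of 0.46 ± 0.05 (limma-trend adjusted p = 0.00492). H2-DMa was the gene with the closest replicates of all, and it too did not overlap between groups.

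These calls without LPS rest on the spread shared by all 4 groups. With a model of the 4 libraries without LPS alone, none of the 7 genes was called, although all 7 had an unadjusted p under 0.05 in limma-trend; that model called 51 of all genes tested. With voom, on reads rebuilt from the FPKM, all 7 were called. The number called among the 7 was 0 without KO_con replicate 2, where 6 had an unadjusted p under 0.05, 1 without KO_con replicate 1 and 1 without WT_con replicate 1. The differences themselves kept their direction under all alternatives, at 0.39 to 0.55 for H2-Ab1 and 0.30 to 0.44 for Cd74.

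H2-DMb1 stood apart without LPS. It had 10.4 and 10.3 FPKM in KO_con, against 15.7 and 12.4 in WT_con, and its groups did not overlap, with KO_con the lower. The difference of -0.40 ± 0.12 was not called (limma-trend adjusted p = 0.102), but it was called with voom, at -0.43, and without WT_con replicate 2, at -0.55. Its ratio to H2-DMa, in FPKM, was 0.591 and 0.587 in KO_con, against 1.26 and 0.987 in WT_con. With LPS that ratio was 1.68 and 1.52 in KO_M1, against 1.72 and 1.77 in WT_M1. H2-DMb1 shares 22.65% of its stretches of 50 bases with H2-DMb2, so reads from either copy can be split between them, but H2-DMb2 had only 4 to 27 reads per library. Ciita had 1.53 and 1.63 FPKM in KO_con, against 1.09 and 1.10 in WT_con. It was higher in both KO_con libraries, by 0.30 ± 0.10, and was not called (limma-trend adjusted p = 0.150). For a gene this low, adding 1 to FPKM understates the difference. Over the 12 other settings that left out no library, the Ciita difference ran from 0.11 to 0.53.

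With LPS against no LPS, all 7 genes tested were called higher in KO-labelled cells and in WT cells on the deposited scale, but under scaling to total reads or TPM the changes of H2-Aa, H2-Eb1, H2-DMa and Cd74 in WT cells turned negative. Of all genes 65.9% were called in KO-labelled cells and 71.5% in WT cells; 34.7% and 37.7% were called higher, and 31.2% and 33.9% lower. The median change of the 7 was 0.73 in KO-labelled cells and 0.59 in WT cells, beside 0.02 and 0.04 over all genes tested. The comparisons within KO-labelled and within WT cells share no library in their means. Their tests share 1 estimate of the spread from all 8 libraries, so they are not independent.

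Ciita and H2-DMb1 rose in both genotypes under all alternatives. Ciita, from the values above, was higher in KO_M1 than in KO_con by 1.09 ± 0.10 (limma-trend adjusted p = 7.19e-05) and in WT_M1 than in WT_con by 1.16 ± 0.10 (limma-trend adjusted p = 4.32e-05). H2-DMb1 was higher in KO_M1 than in KO_con by 1.74 ± 0.12 (limma-trend adjusted p = 1.21e-05), and in WT_M1 than in WT_con by 1.05 ± 0.12 (limma-trend adjusted p = 1.50e-04). Among the class II chains H2-Ab1 moved most, by 1.01 ± 0.07 in KO-labelled cells and 0.85 ± 0.07 in WT cells (limma-trend adjusted p = 1.89e-05 and 3.83e-05), although quantile normalization turned its WT change to -0.30. H2-Aa was higher by 0.56 ± 0.06 and 0.30 ± 0.06 (limma-trend adjusted p = 1.39e-04 and 0.00293), and H2-Eb1 by 0.51 ± 0.09 and 0.39 ± 0.09 (limma-trend adjusted p = 0.00230 and 0.00778), in KO-labelled and WT cells in that order. The WT call of H2-Eb1 ended without WT_M1 replicate 2, at 0.33 (limma-trend adjusted p = 0.0515). Cd74 was higher by 0.73 ± 0.06 and 0.59 ± 0.06, and H2-DMa by 0.37 ± 0.05 and 0.43 ± 0.05, in the same order.

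The size of the LPS change depends on how libraries are scaled, because the deposited values were scaled by a library size that differs between the arms. Under total-read scaling the median change of all genes moved to -0.37 in KO-labelled cells and -0.48 in WT cells. In WT cells the changes of H2-Aa, H2-Eb1, H2-DMa and Cd74 then stood at -0.33, -0.24, -0.16 and -0.04, each still above that median, and H2-Aa and H2-DMa were called lower with LPS (limma-trend adjusted p = 0.00185 and 0.0204). Under quantile normalization H2-Aa, H2-Ab1 and H2-Eb1 were called lower with LPS in WT cells, and H2-Aa and H2-Eb1 in KO-labelled cells. With scaling to total reads, only H2-DMa turned negative in KO-labelled cells, at -0.08.

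**Figure D3:**
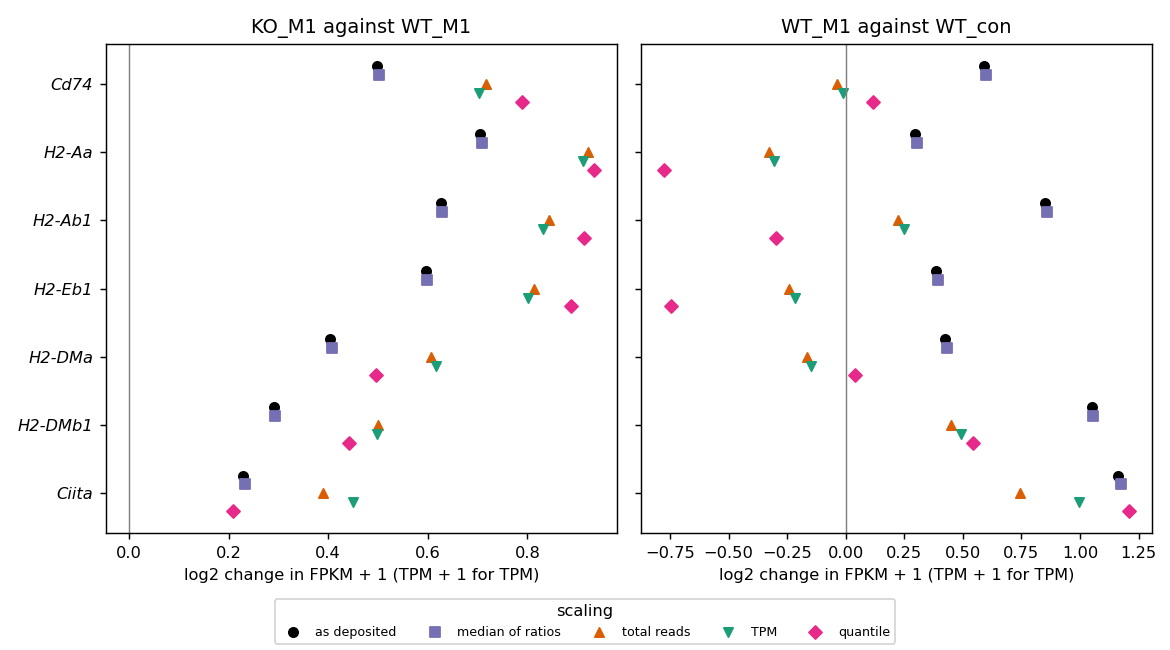
Log2 change of the 7 genes under 5 scalings of the libraries, for KO_M1 against WT_M1 (left) and for WT_M1 against WT_con (right). On the left all points lie right of 0, with H2-Aa from 0.71 as deposited to 0.93 under quantile normalization. On the right H2-Aa lies at 0.30 as deposited and at -0.33 under total-read scaling, while Ciita and H2-DMb1 stay right of 0.

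Ratios between genes of the same library do not depend on the library size used. H2-Ab1 over H2-Aa was 1.56 and 1.54 in KO_M1, 1.66 and 1.62 in WT_M1, 1.11 and 1.16 in KO_con and 1.10 and 1.14 in WT_con. The beta chain of I-A was thus read at a higher level relative to its alpha chain in every LPS library than in every library without LPS. H2-Eb1 over H2-Ab1 was 0.688 ± 0.022 in KO_M1, 0.703 ± 0.023 in WT_M1, 0.971 ± 0.00022 in KO_con and 0.972 ± 0.024 in WT_con (mean ± SD, n = 2). Here the LPS libraries were the lower ones, and the genotypes overlapped in each state. Cd74 over H2-Aa was 7.87 and 8.15 in KO_M1, 9.14 and 9.38 in WT_M1, 7.02 and 7.19 in KO_con and 7.61 and 7.51 in WT_con. In each state, Cd74 was read at a lower level relative to H2-Aa in the KO-labelled libraries.

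The order of the 4 groups differed between genes. Cd74, H2-Ab1 and Ciita stood highest in KO_M1, then WT_M1, KO_con and WT_con in deposited FPKM, with no overlap between neighbouring groups. The place of WT_M1 in this order rests on the LPS change and so on the scaling described above. For H2-Aa, KO_con at 197 and 210 FPKM lay above WT_M1 at 178 and 188, so that KO-labelled cells without LPS held more than WT cells with it. For H2-Eb1 those groups overlapped, and for H2-DMa they were close, at 17.6 and 17.6 FPKM in KO_con against 16.9 and 17.5 in WT_M1. H2-DMb1 ran KO_M1, WT_M1, WT_con, KO_con.

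The interaction, the LPS change in KO-labelled cells less that in WT cells, was called for 1 of the 7 genes, H2-DMb1, at 0.69 ± 0.16 (limma-trend adjusted p = 0.0326). Over all genes 16% were called in either direction, and 5.64% had the more positive LPS change in KO-labelled cells. The H2-DMb1 call was kept without KO_M1 replicate 2 (0.81) and without WT_con replicate 2 (0.84). It ended without KO_M1 replicate 1 (0.57), WT_M1 replicate 1 (0.65), WT_M1 replicate 2 (0.73), KO_con replicate 1 (0.69), KO_con replicate 2 (0.69) or WT_con replicate 1 (0.53), with limma-trend adjusted p-values of 0.060 to 0.10 in those 6 fits. H2-Aa came next at 0.26 ± 0.08 (limma-trend adjusted p = 0.0828), and was called under TPM, total-read and quantile scaling and with voom, at 0.26 to 0.43. For H2-Ab1, H2-Eb1, Cd74, H2-DMa and Ciita the interaction was 0.15, 0.12, 0.14, -0.05 and -0.07, none of them called (limma-trend adjusted p of 0.348 to 0.796). The 95% intervals of H2-Ab1 and Cd74 ran from -0.09 to 0.40 and from -0.07 to 0.35.

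The 2 genes that were not tested had few reads. H2-DMb2 (ENSMUSG00000037548) had 0.642 and 0.532 FPKM in KO_M1, 0.171 and 0.272 in WT_M1, 0.713 and 0.525 in KO_con and 0.640 and 0.484 in WT_con, from 4 to 27 reads. The WT_M1 libraries were the lowest. Tested with no FPKM minimum, H2-DMb2 was called lower with LPS in WT cells, at -0.35 (limma-trend adjusted p = 0.0421). This was opposite in sign to the other 7 genes on the deposited scale. It rests on 4 and 6 reads in WT_M1 against 24 and 18 in WT_con. In that setting 9558 of 25719 genes were called in either direction. In KO-labelled cells the H2-DMb2 change was -0.03 and not called (limma-trend adjusted p = 0.925). H2-Oa was called in no comparison. H2-Oa (ENSMUSG00000024334) had 0.157 and 0.297 FPKM in KO_M1, 0.725 and 0.059 in WT_M1, 0 and 0.205 in KO_con and 0 and 0.070 in WT_con, from 0 to 13 reads. The libraries of each group lay far apart for H2-Oa, and a count of 0 allows up to 3 reads. Its partner H2-Ob, which is not among the 9 genes, also lay under the minimum, with 0.653 and 0.577 FPKM in KO_M1, 0.372 and 0.418 in WT_M1, 0.358 and 0.270 in KO_con and 0.101 and 0.204 in WT_con. H2-Eb2 and H2-Ea-ps, the other class II genes of the table outside the 9, were at 0.0948 FPKM or less in every library.

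The class II genes of chromosome 17 are interleaved with genes that serve class I presentation, which offers a comparison within 1 region. In the order of their starts the region runs H2-Oa, Brd2, H2-DMa, H2-DMb2, H2-DMb1, Psmb9, Tap1, Psmb8, Tap2, H2-Ob, H2-Ab1, H2-Aa, H2-Eb1, H2-Eb2, H2-Ea-ps and Btnl2. Psmb8 and Psmb9 encode immunoproteasome subunits that cut peptides for class I, Tap1 and Tap2 encode the transporter that carries those peptides into the endoplasmic reticulum, and Brd2 encodes a bromodomain protein. With LPS all 5 of these genes were called lower in KO-labelled cells, with a median change of -0.61, beside -0.02 over all genes, where 18.1% were called lower. Btnl2, the sixth of the list, was not tested.

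Tap1 had 143 and 156 FPKM in KO_M1, against 243 and 257 in WT_M1. Its groups lay far apart, with a difference of -0.74 ± 0.06 (limma-trend adjusted p = 2.84e-04). Psmb9, whose 5′ end overlaps that of Tap1 on the opposite strand, had 30.4 and 27.8 FPKM in KO_M1, against 42.3 and 47.5 in WT_M1, a difference of -0.61 ± 0.08 (limma-trend adjusted p = 0.00213). Tap2 and Psmb8 differed by -0.61 ± 0.06 and -0.48 ± 0.05. The lower level of these 4 genes in KO_M1 was called in all 21 alternatives, while that of Brd2, at -0.29 ± 0.04, was not called under TPM, total-read or quantile scaling. H2-Aa, H2-Ab1 and H2-Eb1, from 1 side of these genes, and H2-DMa, from the other, thus differed between KO_M1 and WT_M1 in the opposite direction to the 4 class I presentation genes that lie between them. Without LPS only Tap1 of the 5 was called, at -0.36 ± 0.06 (limma-trend adjusted p = 0.0204), and not without KO_con replicate 1 (-0.35), KO_con replicate 2 (-0.38) or WT_con replicate 1 (-0.32).

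All 5 genes were called higher with LPS in each genotype, with a median change of 2.77 in KO-labelled cells and 3.07 in WT cells. Tap1 changed by 4.20 ± 0.06 in KO-labelled cells and 4.58 ± 0.06 in WT cells. All 5 interactions were called negative, from -0.63 ± 0.12 for Psmb9 (limma-trend adjusted p = 0.0135) to -0.21 ± 0.05 for Brd2 (limma-trend adjusted p = 0.0492), beside 10.3% of all genes with a negative call. That of Brd2 turned to 0.01 under quantile normalization. Those of Psmb9, Tap2, Tap1, Psmb8 and Brd2 were called in 17, 11, 9, 6 and 4 of 20 alternatives, and 0 to 3 of the 5 were called when a library was left out.

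**Figure D4:**
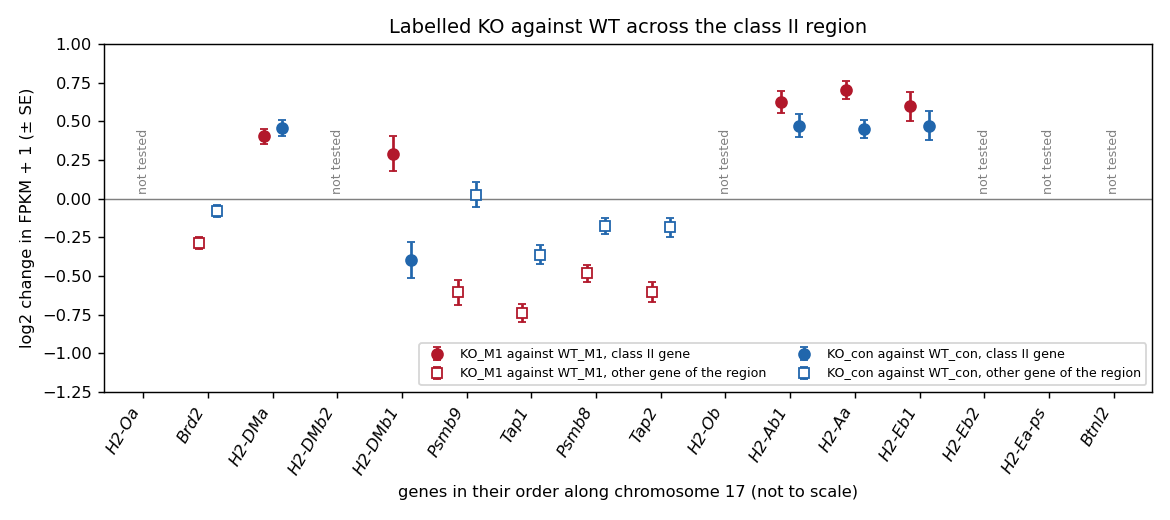
Log2 change in FPKM + 1 (± SE from limma-trend) of the genes of the class II region, in their order along chromosome 17, for KO_M1 against WT_M1 (red) and KO_con against WT_con (blue). Circles are class II genes and open squares the other genes of the region. The class I presentation genes Psmb9, Tap1, Psmb8 and Tap2 lie between -0.48 and -0.74 in red, while H2-DMa, H2-Ab1, H2-Aa and H2-Eb1 on either side lie between 0.40 and 0.71.

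Among the factors known to act upstream of Ciita, 13 of 15 were tested. Ifng, which encodes interferon gamma, had 0 reads in 7 libraries and 2 reads in WT_M1 replicate 1, and Irf4 stayed under 1 FPKM. With LPS, 11 of the 13 were called lower in KO-labelled cells and 1 higher, where 18.1% of all genes were called lower and 10.8% higher, though 2 of the 11, Prdm1 and Spi1, turned positive under total-read scaling. The number called lower was 5 under TPM, 6 under total-read and quantile scaling and 8 to 12 when a library was left out. The median change was -0.37, beside -0.02 over all genes. Among the largest were Irf2, an interferon regulatory factor, at -0.62 ± 0.05 (limma-trend adjusted p = 3.92e-04), and Usf1, which binds a promoter of Ciita, at -0.56 ± 0.06 (limma-trend adjusted p = 7.52e-04). Irf2 had 13.5 and 14.6 FPKM in KO_M1, against 22.2 and 22.1 in WT_M1, with no overlap. Ifngr1, a chain of the interferon gamma receptor, was the gene called higher, with 44.1 and 42.1 FPKM in KO_M1 against 33.2 and 35.3 in WT_M1 (0.32 ± 0.05, limma-trend adjusted p = 0.00323). Irf2, Usf1 and Ifngr1 were called in all 21 alternatives. Ciita itself stood at 0.23 in the same comparison, opposite in sign to most of this list.

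Without LPS 1 of the 13 was called lower, Spi1 at -0.19 ± 0.04 (limma-trend adjusted p = 0.0298), which held in 8 of 21 alternatives and ended without any library of KO_con, WT_con or WT_M1, at -0.18 to -0.21. The median was -0.06. With LPS against no LPS, 11 were called higher and 2 lower in each genotype, beside 34.7% and 31.2% of all genes in KO-labelled cells and 37.7% and 33.9% in WT cells. The largest changes were those of Socs3, a feedback inhibitor of cytokine signalling, at 7.27 ± 0.10 in KO-labelled cells and 7.81 ± 0.10 in WT cells, of the kinase Jak2 at 4.48 ± 0.05 and 4.84 ± 0.05, and of Irf1, an activator of Ciita, at 3.79 ± 0.07 and 4.23 ± 0.07. The interaction was called for 8 of the 13, all negative, beside 10.3% of all genes called negative, and for 2 to 6 of them when a library was left out. Irf2 had the largest interaction, at -0.65 ± 0.08 (limma-trend adjusted p = 0.00310), followed by Socs3 and Socs1 at -0.55 ± 0.14 and -0.52 ± 0.13. That of Irf2 was called in all 20 alternatives, and those of Socs3 and Socs1 in 6 and 7.

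The factors that bind the X and Y boxes are Rfx5, Rfxap and Rfxank of the RFX complex, Creb1, and Nfya, Nfyb and Nfyc of NF-Y. None of these 7 was called between KO-labelled and WT cells by limma-trend, with or without LPS, or for the interaction. Of all genes, 28.9%, 5.64% and 16% were called there. At an unadjusted p under 0.05 limma-trend gave 1 of the 7 in each of these comparisons, and voom called none; under TPM and total-read scaling 3 of the 7, Rfxank, Rfxap and Nfya, were called higher in KO-labelled cells with LPS. As deposited, with LPS, Rfxank and Rfxap had the largest changes, 0.24 ± 0.09 and 0.24 ± 0.11, and without LPS Rfx5 and Creb1 had 0.20 ± 0.07 and 0.18 ± 0.08. With LPS against no LPS, 3 of the 7 were called higher and 2 lower in KO-labelled cells, and 2 higher and 2 lower in WT cells. Rfx5 was higher by 1.50 ± 0.07 in KO-labelled cells and 1.79 ± 0.07 in WT cells (limma-trend adjusted p = 1.39e-06 and 4.57e-07). Rfx5 had 6.99 and 7.44 FPKM in KO_M1 and 7.46 and 7.98 in WT_M1, against 1.88 and 1.93 in KO_con and 1.56 and 1.49 in WT_con. Rfxap and Rfxank, the other members of that complex, were called lower with LPS, Rfxap by -0.45 ± 0.11 and -0.58 ± 0.11, and Rfxank by -0.33 ± 0.09 and -0.50 ± 0.09, in KO-labelled and WT cells in that order. Nfyb, a subunit of NF-Y, was called higher with LPS by 0.46 ± 0.10 in KO-labelled cells and 0.56 ± 0.10 in WT cells, but not under TPM or total-read scaling. In KO-labelled cells the Rfxap call ended without KO_M1 replicate 2 (-0.33) or KO_con replicate 1 (-0.40), and the Rfxank call without KO_M1 replicate 1 (-0.29), KO_con replicate 1 (-0.32) or KO_con replicate 2 (-0.35).

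Among the endosomal proteases that cut antigen and the invariant chain, and their partners, 3 of 10 tested were called lower in KO-labelled cells with LPS and none higher, where 18.1% of all genes were called lower and 28.9% in either direction: Ctsl at -0.40 ± 0.07, Lgmn at -0.34 ± 0.05 and Ctsc at -0.32 ± 0.05 (limma-trend adjusted p = 0.00485, 0.00213 and 0.00463). These encode the proteases cathepsin L, legumain and cathepsin C, and none of the 3 was called under TPM, total-read or quantile scaling. Without LPS 2 were called lower and 1 higher, beside 3.92% and 1.72% of all genes. Ctss, which encodes cathepsin S, the protease known for the last cuts of the invariant chain, had 1436 and 1470 FPKM in KO_con, against 1912 and 2110 in WT_con. It was lower in KO_con by -0.47 ± 0.06 (limma-trend adjusted p = 0.0119). Ifi30, a thiol reductase of endosomes, had 21.7 and 20.4 FPKM in KO_con, against 35.1 and 36.7 in WT_con, a change of -0.74 ± 0.11 (limma-trend adjusted p = 0.0153), and Ctsc was the gene called higher, at 0.42 ± 0.05 (limma-trend adjusted p = 0.00796). Each of these 3 calls ended without KO_con replicate 1 (Ctss -0.45, Ifi30 -0.79, Ctsc 0.43) and without KO_con replicate 2 (Ctss -0.48, Ifi30 -0.70, Ctsc 0.41). Those of Ifi30 and Ctsc also ended without WT_con replicate 1 (-0.77 and 0.39), and that of Ifi30 without WT_con replicate 2 (-0.71).

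With LPS against no LPS, 2 of the 10 were called higher and 6 lower in each genotype, beside 34.7% and 31.2% of all genes in KO-labelled cells and 37.7% and 33.9% in WT cells. Ctsc was higher by 3.44 ± 0.05 in KO-labelled cells and 4.18 ± 0.05 in WT cells, and Ctsz, cathepsin Z, by 1.01 ± 0.05 and 1.04 ± 0.05. Ctsd, cathepsin D, changed by -1.57 ± 0.05 and -1.75 ± 0.05, and Ifi30 by -0.48 ± 0.11 and -1.06 ± 0.11. The interaction was called for Ctsc, at -0.74 ± 0.07 (limma-trend adjusted p = 0.00193), and in all 20 alternatives. That of Ifi30 had the opposite sign, at 0.58 ± 0.16 (limma-trend adjusted p = 0.0531), and was called in 10 of 20 alternatives.

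March1, a membrane ubiquitin ligase that sends class II molecules from the cell surface to lysosomes, was higher with LPS by 2.63 ± 0.06 in KO-labelled cells and 2.61 ± 0.06 in WT cells. It had 42.8 and 44.8 FPKM in KO_M1, against 43.8 and 42.7 in WT_M1, groups that overlapped. Its difference with LPS was 0.02 ± 0.06 and that without LPS 0.0036 ± 0.06, neither of them called as deposited (limma-trend adjusted p = 0.854 and 0.989), although under TPM and total-read scaling the difference with LPS was called, at 0.22 and 0.23. Cd83, whose protein counters March1, had 31.6 and 30.0 FPKM in KO_M1, against 48.8 and 56.5 in WT_M1. It was lower in KO_M1 by -0.75 ± 0.07 (limma-trend adjusted p = 5.92e-04), and its LPS change was smaller in KO-labelled cells, with an interaction of -0.72 ± 0.10 (limma-trend adjusted p = 0.00585). Both were called in all alternatives. March8, a relative of March1, was called lower with LPS, by -0.22 ± 0.05 in each genotype, and was not called between KO-labelled and WT cells as deposited, while under TPM and total-read scaling it was called higher in KO-labelled cells with LPS, at 0.28 and 0.27.

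Dendritic cells and B cells are the other cells known for class II, and their markers were read beside these results. The summed level of 10 dendritic cell markers was 14.5 to 15.3 FPKM in KO_M1, 11.3 to 11.6 in WT_M1, 8.31 to 9.10 in KO_con and 8.25 to 8.31 in WT_con; none was at 0 in all libraries. Ccr7, a chemokine receptor of migrating dendritic cells that was singled out after its values were seen, had 7.46 and 6.05 FPKM in KO_M1, 2.96 and 2.62 in WT_M1, 0.183 and 0.408 in KO_con and 0.138 and 0.302 in WT_con. Itgax and Xcr1 were the other markers that reached 1 FPKM, and both lay lower in KO_M1 than in WT_M1, unlike Ccr7. Itgax had 6.14 and 6.39 FPKM in KO_M1, against 6.59 and 7.05 in WT_M1. Xcr1 had 0.308 and 0.628 FPKM in KO_M1, against 0.970 and 1.25 in WT_M1. The summed level of 8 B cell markers was 21.0 to 21.8 FPKM in KO_M1, 23.6 to 24.0 in WT_M1, 25.3 to 25.8 in KO_con and 23.4 to 24.8 in WT_con, lower in KO_M1 than in WT_M1. Most of that sum was Blnk, an adaptor protein of B cell receptor signalling, with 16.6 and 17.4 FPKM in KO_M1, 20.3 and 19.9 in WT_M1, 16.5 and 16.7 in KO_con and 16.7 and 15.8 in WT_con. Ighm, the heavy chain of IgM, went the other way, with 2.47 and 2.72 FPKM in KO_M1, 1.32 and 1.68 in WT_M1, 4.96 and 4.24 in KO_con and 1.23 and 1.73 in WT_con. Cd22, the other marker of this list that reached 1 FPKM, lay lower in KO-labelled cells in each state, without a call. It had 1.84 and 1.61 FPKM in KO_M1, against 1.86 and 1.95 in WT_M1. In KO_con it had 4.17 and 4.17, against 6.41 and 5.18 in WT_con. Ighm was higher in KO-labelled cells by 0.53 ± 0.13 with LPS and by 1.18 ± 0.13 without it (limma-trend adjusted p = 0.0248 and 0.00542). The call with LPS ended without KO_M1 replicate 1 (0.58), KO_M1 replicate 2 (0.48) or WT_M1 replicate 1 (0.42), and that without LPS ended without KO_con replicate 1 (1.08). Blnk and Ighm were singled out after their values were seen. The part of either marker list in the class II differences was not tested.

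The genes whose pattern over the 8 libraries was most like the mean of H2-Aa, H2-Ab1, H2-Eb1 and Cd74 were Tmem176a (Pearson's r = 0.9942 on log2(FPKM + 1)), Xpot (0.9833), Tmem176b (0.9809), Ppp1cc (0.9746) and Abce1 (0.9697), among 5928 genes with a mean FPKM of at least 5. Tmem176a averaged 24.4 FPKM in KO_M1, 15.2 in WT_M1, 13.1 in KO_con and 8.24 in WT_con. Tmem176b, its neighbour in name, averaged 69.5, 44.8, 34.7 and 22.3 FPKM in the same groups. Both stood higher in the KO-labelled group of each state. Their choice by likeness to the class II mean makes this likely in advance, so it is no separate result. The pattern of Ciita was nearest to that of Plekha1 (0.9969), Apmap (0.9957), Ppp1r15a (0.9942), Nfat5 (0.9936) and Atp2a2 (0.993). All of these correlations rest on the same 8 points, which share their 4 groups, and are a description.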

How the data were processed

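RNA was extracted with TRIzol and the libraries were made and sequenced by a service provider, per the labels' protocols. The authors deposited 1 table of FPKM per gene and library with gene length and position. The mm10 build and DESeq2 are named in the submitters' processing notes, without role or version. The aligner, the counter with its strand setting, and the annotation were not given in the sources used here. FPKM times gene length gave whole multiples of 1 step per library for 100% of values above 0, within 0.001, and reads per gene were rebuilt from them. The rebuilt totals differed from the library sizes implied by the deposited FPKM, which stood at 0.784 to 0.925 times those totals with LPS and at 1.21 to 1.28 times without it, so LPS changes depend on the scaling.

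The 4 groups were put in 1 limma-trend model (limma 3.58.1 under R 4.3.3) of log2(FPKM + 1), with 4 residual and 2.74 prior degrees of freedom, for the 11887 genes that reached 1 FPKM in 2 or more libraries. P-values are two-sided, adjusted by Benjamini-Hochberg within each comparison over all genes tested, and called under 0.05. Fold changes are on the log2(FPKM + 1) scale, which understates those of low genes such as Ciita. SDs and means are over n = 2 libraries. With Python 3.11.15, promoter windows of RefSeq (GRCm38.p6) were searched for fixed motifs, and overlaps and shared stretches of 50 bases were read from GENCODE M21; gene positions are those of the deposited table. The procedure was also run on simulated reads, for KO-labelled against WT cells with LPS only and with the same level of extra spread for all genes. Its outcome is not reported here and is not used as support. A count of 0 allows 3 reads, for counting error alone.

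The 9 genes, the 6 pathway lists and the markers were chosen with earlier results of these data known, so no p-value was adjusted over a list alone. All 9 genes are named; from each list, up to 3 of the genes called with the largest change per comparison (up to 2 of those tested where none was called, and all of a list of 4 or fewer), beside the 5 genes most like in pattern. Some genes of these lists are not reported here by name. The alternatives were pseudocounts of 0.1 and 5, no FPKM minimum or one of 5, TPM, total-read, median-of-ratios and quantile scaling, no trend, robust moderation, voom, models of the libraries compared, replicate blocks and leaving out each library.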

Additional observations from a re-analysis of the deposited data

Results flagged for a closer look

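The LPS change differed between KO-labelled and WT cells, by the limma-trend interaction test, for H2-DMb1, the targeted gene Elf1 and the further genes given here. H2-DMb1, at 0.69 (log2), had the more positive LPS change in KO-labelled cells, and the call ended in 6 of 8 fits that left out a library. Ccr7 (0.94) also had the more positive LPS change in KO-labelled cells, and was called in 11 of 20 alternatives; its call ended without KO_M1 replicate 1, WT_M1 replicate 1 or 2, KO_con replicate 1 or WT_con replicate 2. All of the others had the less positive LPS change in KO-labelled cells. Elf1 (-0.64), Ctsc (-0.74), Cd83 (-0.72) and Irf2 (-0.65) were called in all 20 alternatives. Psmb9 (-0.63) was called in 17, and not without KO_con replicate 1 (-0.63), without KO_con replicate 2 (-0.64) or under quantile normalization (-0.39). Tap2 (-0.42) and Tap1 (-0.38) were called in 11 and 9 of the alternatives, and neither was called without KO_M1 replicate 1, WT_M1 replicate 1 or 2, KO_con replicate 1 or WT_con replicate 2; Tap1 was also not called without KO_con replicate 2. Socs3 (-0.55) and Socs1 (-0.52) were called in 6 and 7; of the fits that left out a library, only that without WT_con replicate 1 kept the Socs3 call and only that without KO_M1 replicate 2 kept the Socs1 call. Under total-read scaling the interactions of Tap1, Tap2, Socs1 and Socs3 were -0.21, -0.26, -0.33 and -0.39, with no call. Usf1 (-0.44) was called in 16 of 20, and not without WT_M1 replicate 2 or KO_con replicate 2. Jak2 (-0.36) was called in 12, and not without KO_M1 replicate 1 or any library of WT_M1 or KO_con. Irf1 (-0.44) was called in 8, and of the fits that left out a library in those without KO_con replicate 2 and WT_con replicate 2. Psmb8 (-0.31) was called in 6, and of those fits only without KO_M1 replicate 1. Brd2 (-0.21) and Blnk (-0.26) were called in 4 each, and in none of the fits that left out a library. The cause of these differences was not tested.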

How the results depend on the processing

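For KO-labelled against WT cells with LPS, 5 of the 9 genes were called higher, and 5 to 7 under the alternatives, without a reversal. Without LPS the count of 5 was 2 with no FPKM minimum, 3 without a trend, 0 in a model of the libraries compared and 0 to 5 when a library was left out. For LPS in KO-labelled cells the count of 7 was 4 under TPM and total-read scaling. The interaction count of 1 was 0 with no FPKM minimum and without a trend, 2 under TPM, total-read and quantile scaling and with voom, and 0 to 1 when a library was left out. Reversals under TPM were those of the LPS changes in WT cells of H2-Aa (-0.30), H2-Eb1 (-0.22), H2-DMa (-0.15) and Cd74 (-0.012), of H2-DMa in KO-labelled cells (-0.084) and of its interaction (0.062). Under total-read scaling the same reversed, to -0.33, -0.24, -0.16, -0.039, -0.081 and 0.083, with the Ciita interaction at 0.024. Under quantile normalization the reversed LPS changes were H2-Aa (-0.77), H2-Ab1 (-0.30) and H2-Eb1 (-0.75) in WT cells and H2-Aa (-0.34), H2-Eb1 (-0.37) and H2-DMa (-0.0013) in KO-labelled cells. Of these, H2-Aa in every case, H2-DMa in WT cells under TPM and total-read scaling, and H2-Ab1 and H2-Eb1 under quantile normalization were called lower. The Ciita interaction of -0.07 was 0.017 with a pseudocount of 5 and -0.18 to 0.042 when a library was left out, positive without KO_M1 replicate 1 (0.011) or WT_M1 replicate 1 (0.042). The cause of these shifts was not tested.

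Total-read scaling moved the median change of all genes to -0.37 and -0.48 for LPS in KO-labelled and WT cells, and to 0.14, 0.05 and 0.09 for KO-labelled against WT cells with LPS, without LPS and for the interaction. The share of higher genes among all calls was 37.4% as deposited for KO-labelled against WT cells with LPS, and 75.1, 73.2 and 53.6% under total-read, TPM and quantile scaling. It was 30.6% without LPS, and 52.0, 54.8 and 42.0%; for the interaction it was 35.3%, and 63.8, 57.4 and 51.8%. For LPS it was 52.7% in KO-labelled and 52.6% in WT cells, and 26.4 and 25.3% under total-read scaling, 26.3 and 25.7% under TPM and 42.0 and 41.8% under quantile normalization.

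The replicate numbers did not pair the libraries: deviations of libraries with the same number correlated at -0.0770 to 0.0334 between groups. With a replicate block 7, 7, 5, 4 and 1 of the 9 genes were called for LPS in KO-labelled cells, LPS in WT cells, KO-labelled against WT cells with and without LPS, and the interaction; H2-Eb1 without LPS lost its call, at 0.47 (limma-trend adjusted p = 0.0630). Over all genes, the 671 calls without LPS were 406 with the block, 1696 with voom, 51 in a model of the libraries compared and 137 to 429 without KO_con replicate 1 or 2, WT_con replicate 1 or WT_M1 replicate 1 or 2; the 3438 with LPS were 2114 without WT_M1 replicate 2, and the 1900 interactions 963 to 1260 without any 1 library of KO_con or WT_M1 or without KO_M1 replicate 1. With 2 libraries a group, few reads limit H2-DMb2 and H2-Oa.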

Other observations

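Markers of other cell types that a marrow culture can hold were low in most cases. Of 9 T and NK cell markers, 8 stayed under 1 FPKM in all libraries, and Cd4 had 1.95 to 2.16 FPKM in KO_M1, 2.21 to 2.56 in WT_M1, 4.59 to 4.91 in KO_con and 4.62 to 4.65 in WT_con. All 5 mast cell and basophil markers and all 6 erythroid markers stayed under 1 FPKM. Of 8 neutrophil markers 4 did so, and the highest of the others, S100a8, which encodes a calcium-binding protein of myeloid cells, had 9.79 and 6.65 FPKM in KO_M1, 9.29 and 9.27 in WT_M1, 1.50 and 1.36 in KO_con and 0.591 and 1.59 in WT_con. Of 6 stromal markers 4 did so. Col1a1, a collagen chain of stromal cells, had 0.470 and 0.664 FPKM in KO_M1, 1.47 and 6.15 in WT_M1, 0.310 and 2.06 in KO_con and 6.85 and 2.12 in WT_con. Within each state, both KO-labelled libraries thus lay below both WT libraries, without LPS only by 2.06 against 2.12, and the groups' libraries lay far apart. The change of Col1a1 was -1.43 ± 0.65 with LPS and -1.31 ± 0.65 without it (limma-trend adjusted p = 0.150 and 0.304), and its part in the class II differences was not tested.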
